A study of Homo sapiens with 20 samples.

Results

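Androgen-responsive LNCaP cells, an established line from human prostate cancer, were arrested in what the labels call late S phase and compared with the CDT cells of the same study. The arrays were chosen by their titles, which gave 3 late S and 3 CDT arrays, 6 of the 20 arrays in the series. Late S cells grew in hormone-proficient medium, had 1 mM hydroxyurea for 24 h, and received 10 nM dihydrotestosterone (DHT), a natural androgen, for the last 3 h. CDT cells spent 72 h in a medium that the labels name CDT and had ethanol for the last 3 h, with neither hydroxyurea nor DHT. Medium, drug and DHT therefore changed together between these groups and cannot be told apart in this comparison. An arrest with no DHT was not analysed here. For reference, late S was also set against early S cells (2 arrays), which had 2 µg/mL aphidicolin, a DNA polymerase inhibitor, for 24 h and 10 nM DHT for the last 3 h, and against CDT + DHT cells (3 arrays), which had 72 h in CDT and 3 h of 10 nM DHT but no drug.

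Hydroxyurea inhibits ribonucleotide reductase, the enzyme that makes deoxyribonucleotides, so that replication forks stall. Stalled forks activate the kinase ATR and its effector CHEK1, and they stabilise the tumour suppressor p53, which raises a set of genes for arrest, repair and death. DHT binds the androgen receptor, which then occupies androgen response elements near genes such as the kallikreins of prostate epithelium.

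Intensities were on an Affymetrix human gene array and are given as log2(intensity + 1), called log2 units. The array medians lay between 6.15 and 9.08 on the linear scale over the 6 arrays. In late S replicates 1, 2 and 3, 20.3%, 9.36% and 16.5% of the features were below an intensity of 1, against 15.4%, 11.7% and 15.4% in CDT replicates 1, 2 and 3. Over the 9209 brighter genes, the correlation across genes was 0.581 between late S replicates 1 and 2, and 0.882 between late S replicate 2 and CDT replicate 2. CDT replicate 1 correlated with CDT replicates 2 and 3 at 0.669 and 0.646, where those arrays correlated with each other at 0.848. Late S replicates 1 and 2 and CDT replicate 1 thus stood apart within their groups. Leaving out late S replicate 1 moved the median difference of all genes to 0.10 log2 units, against -0.10 with it. Nothing in the labels tells if the replicates came from different cultures. The p-values therefore reflect no more than the spread between arrays within groups, which may be technical. That spread was estimated from all 20 arrays in 7 groups, not from these 6 arrays alone. In bulk RNA, fewer cells of a type and less RNA per cell cannot be told apart.

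Luminal markers were present in both groups. Of 18 listed luminal prostate markers, 14 were measured. The difference between late S and CDT was above 0 for 4 of them and at or below 0 for 10. Among all genes 44.5% were above 0. The median of the list was -0.44 log2 units, beside -0.10 for all genes. EPCAM, an epithelial adhesion protein, averaged 8.60 ± 0.45 log2 units in late S and 8.38 ± 0.26 in CDT (SD, n = 3 each). FOXA1, a factor that opens chromatin for the androgen receptor, averaged 6.85 ± 0.15 in late S and 7.24 ± 0.33 in CDT (SD, n = 3 each). The basal keratin KRT5 averaged 3.59 ± 0.53 in late S and 3.62 ± 0.76 in CDT (SD, n = 3 each).

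Late S cells had 18 genes higher and 0 lower than CDT cells (limma, Benjamini-Hochberg adjusted p below 0.05 over 18417 genes). That is 0.0977% of the genes higher and 0% lower. All 3 late S arrays lay above all 3 CDT arrays in 4.01% of all genes and below them in 5.18%, the shares against which counts without overlap are set here. At an unadjusted p below 0.05, 479 genes (2.6%) were higher and 615 (3.34%) lower. The 18 formed a pair of groups of 9. In the first group, SFN, CDKN1A, TP53I3, DDB2, GDF15, KLK2, S100P, IER3 and RGS2, every late S array was at 5.17 log2 units or above. In the second, every CDT array was below 1 log2 unit, close to the lowest values the arrays gave. RefSeq places SFN and RGS2 on chromosome 1, CDKN1A and IER3 on 6, KLK2 and GDF15 on 19, TP53I3 on 2, S100P on 4 and DDB2 on 11.

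With a pseudocount of 16 in place of 1, which damps dim signals, 9 of these 9 genes passed and 0 of the second 9. The second 9 were set apart by their low CDT values, where a larger pseudocount shrinks differences most. This outcome therefore partly follows from the grouping. SFN passed in 16 of 17 alternatives, CDKN1A and S100P in 14, KLK2 and TP53I3 in 13, GDF15 in 10, IER3 in 8 of 16, and DDB2 and RGS2 in 7 of 17. Leaving out either late S replicate 3 or CDT replicate 3 left SFN as the only gene called. Leaving out late S replicate 1 left 5 genes, namely SFN, CDKN1A, S100P, KLK2 and TP53I3. Leaving out CDT replicate 1 gave 6 genes, leaving out CDT replicate 2 gave 4 and leaving out late S replicate 2 gave 35, and fitting only the 6 compared arrays gave 0 (670 at an unadjusted p below 0.05). Of 18417 genes, 670 is a smaller share than the unadjusted threshold of 0.05 itself.

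**Figure D1:**
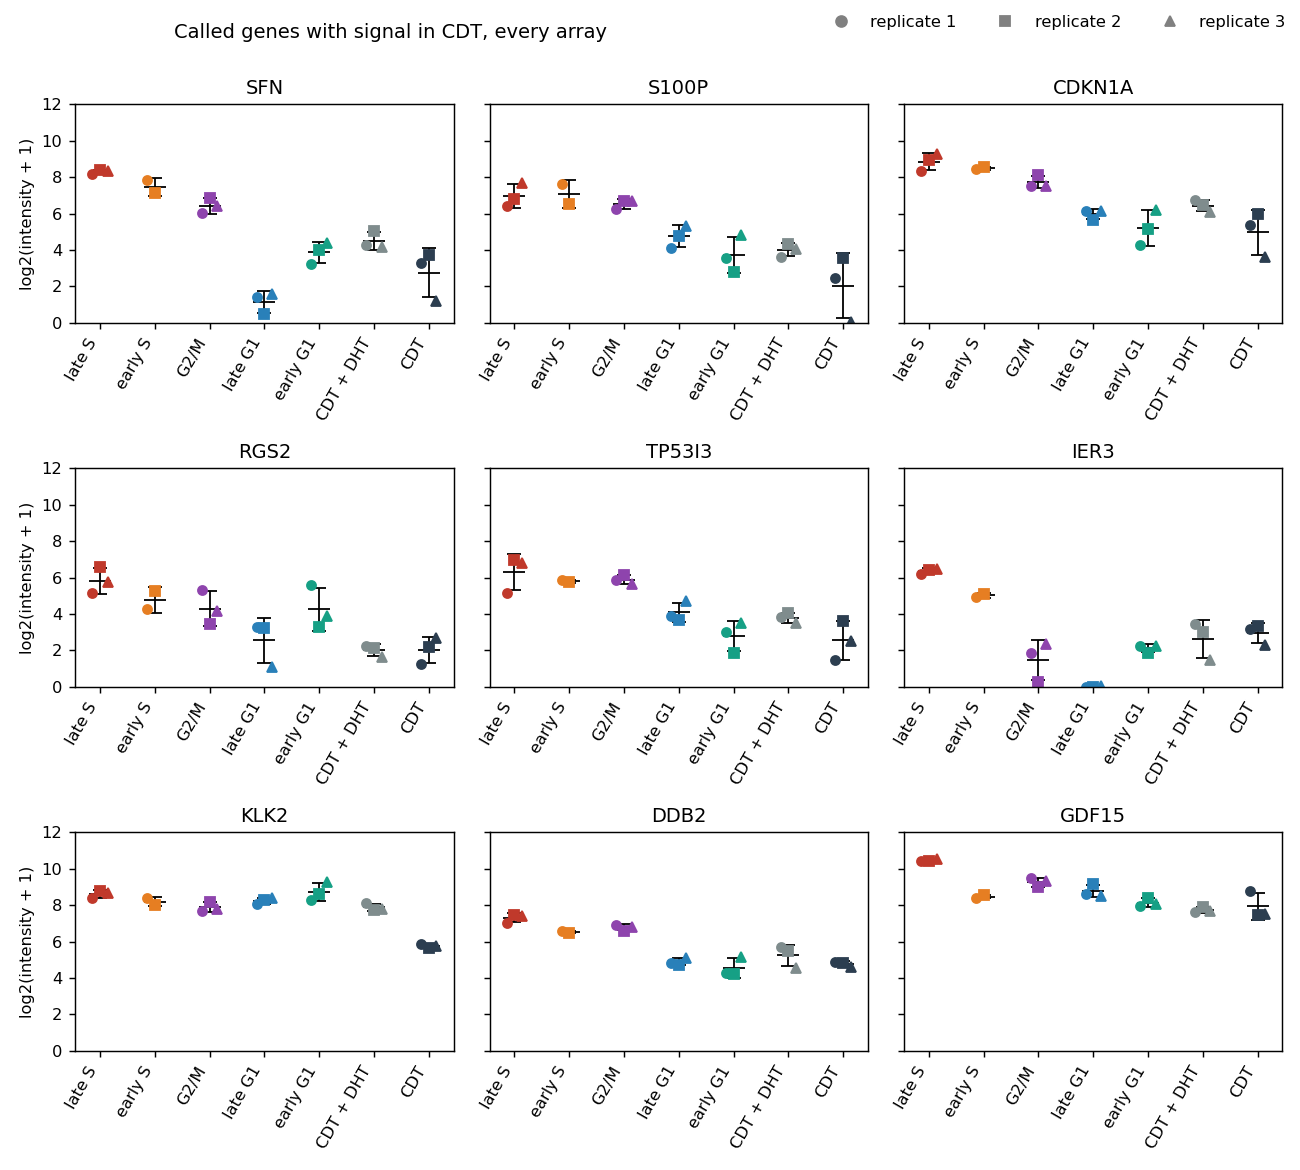
Every array's log2(intensity + 1) for the 9 called genes with signal in CDT, by group, with the mean and SD as black bars and the replicate as the symbol. Late S stands at the left and CDT at the right of each panel, and all 3 late S arrays lie above all 3 CDT arrays in each panel.

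SFN, or 14-3-3 sigma, holds cells before mitosis by keeping cyclin-dependent kinase complexes in the cytoplasm. It stood at 8.20, 8.39 and 8.32 log2 units in late S replicates 1, 2 and 3, against 3.28, 3.75 and 1.23 in CDT replicates 1, 2 and 3. The late S arrays were almost level and far above every CDT array. The difference was 5.55 ± 0.59 log2 units (SE), or 46.9-fold on the intensity + 1 scale, with an adjusted p of 0.000257 by limma. It was the smallest p of all genes. Over the alternatives the difference ran from 3.85 to 6.05 log2 units.

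Among 42 listed target genes of p53, 38 were measured, 4 rose and 0 fell. Their median difference was 0.82 log2 units, beside -0.10 for all genes. The arrays of late S and CDT did not overlap for 12 members (31.6%), all higher in late S, beside 4.01% higher of all genes. The median was 0.42 with a pseudocount of 16 and 1.18 without late S replicate 1. In each array the mean over the list lay between 4.24 and 5.66 log2 units in late S and between 3.72 and 4.54 in CDT.

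CDKN1A encodes p21, the inhibitor of cyclin-dependent kinases through which p53 halts the cycle. Its levels were 8.34, 8.94 and 9.28 log2 units in late S and 5.36, 5.97 and 3.60 in CDT. All late S arrays exceeded all CDT arrays, with CDT replicate 3 lowest. The difference was 3.88 ± 0.59 log2 units (SE), or 14.7-fold, with an adjusted p of 0.0123 by limma.

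TP53I3, a quinone oxidoreductase induced by p53, had 5.17, 6.97 and 6.78 log2 units in late S and 1.50, 3.62 and 2.53 in CDT. The groups did not overlap, and replicate 1 was lowest in both. The difference was 3.76 ± 0.60 log2 units (SE; limma adjusted p = 0.0198).

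GDF15, a secreted stress cytokine of the TGF-beta family, had 10.44, 10.42 and 10.54 log2 units in late S and 8.80, 7.48 and 7.53 in CDT. The late S arrays agreed closely, whereas CDT replicate 1 stood above the other CDT arrays. The difference was 2.53 ± 0.44 log2 units (SE; limma adjusted p = 0.0336).

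DDB2, the damage-recognition protein of nucleotide excision repair, had 7.02, 7.48 and 7.43 log2 units in late S and 4.88, 4.84 and 4.61 in CDT. Both groups were tight and did not overlap. The difference was 2.53 ± 0.44 log2 units (SE; limma adjusted p = 0.0336). Downstream of a DDB2 start lies a match to the p53 response element, shown because only 10 of 35116 promoter windows in the RefSeq table (0.0285%) hold one without a mismatch. The window runs from 250 bases before to 50 after each start, and gaps of up to 13 bases between the element's 10-base parts were allowed. Capitals mark the parts, in RefSeq on GRCh38.p14, plus strand, chr11:47214975-47215003, 6 to 26 bases after the downstream one of the gene's listed starts.
DDB2: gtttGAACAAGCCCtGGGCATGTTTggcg
The string TTTGAA, present in 15.2% of windows, overlaps this match. With up to 3 mismatches, none of them at the core C or G of either part, the element is found in 12.8% of windows, GDF15 among them. The windows of SFN, CDKN1A, TP53I3, S100P and RGS2 had no such match, which says only that these letters are not in these windows. The p53 and androgen motifs were chosen after the values were seen.

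Other p53 targets did not pass. GADD45A, a DNA damage-inducible arrest protein, had 5.17, 7.14 and 7.04 log2 units in late S and 4.23, 4.66 and 4.57 in CDT (difference 1.96, limma adjusted p = 0.555). Its groups did not overlap, but late S replicate 1 was close to CDT. BBC3, the apoptotic protein PUMA, had 6.91, 6.86 and 6.82 in late S and 6.18, 5.21 and 4.59 in CDT (difference 1.54, limma adjusted p = 0.554). FBXO22, an F-box subunit of a ubiquitin ligase, had a difference of 1.49 (limma adjusted p = 0.474) and passed with a pseudocount of 16 (adjusted p = 0.0467). MDM2, the ubiquitin ligase that restrains p53, overlapped between groups at 5.01, 7.59 and 6.67 in late S and 2.15, 5.27 and 5.87 in CDT.

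**Figure D2:**
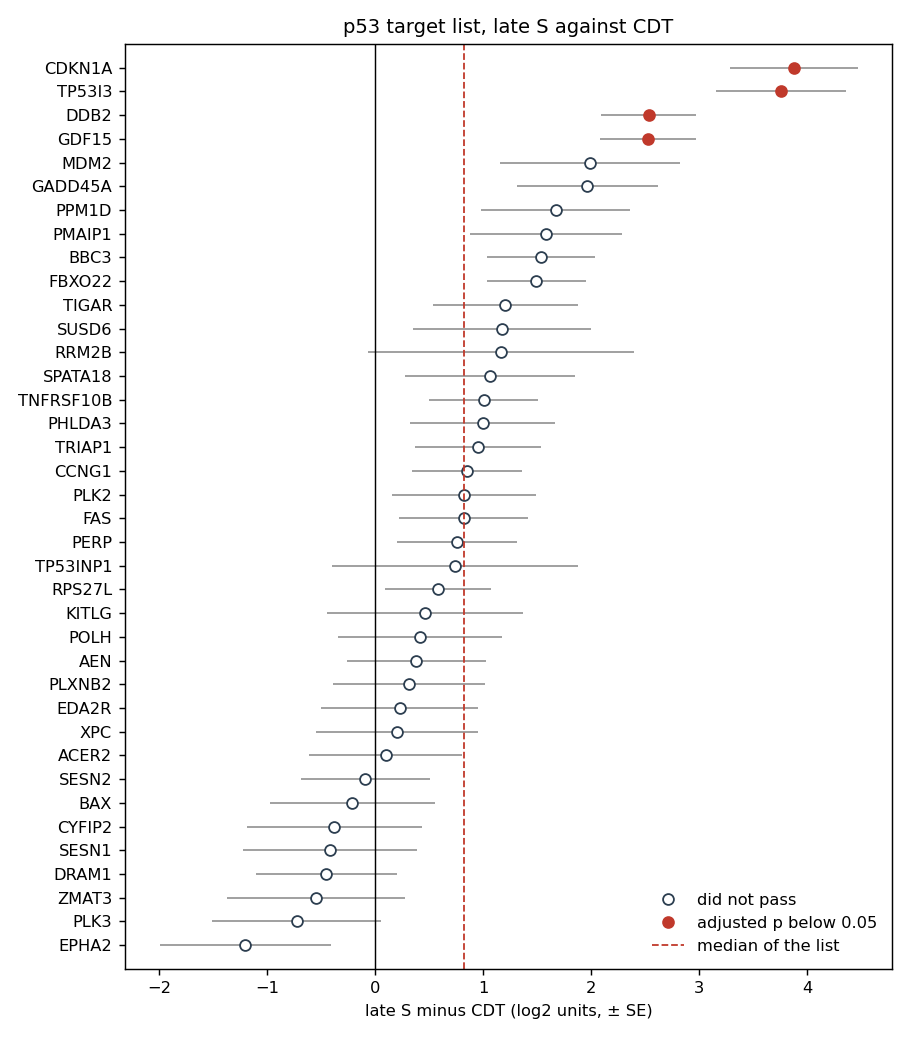
Difference between late S and CDT for each of the 38 measured p53 targets, with its SE, in log2 units. The 4 filled genes passed at an adjusted p below 0.05, and 30 of the 38 points lie above 0 while the dashed median is at 0.82.

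S100P, a calcium-binding protein of the S100 family, had 6.42, 6.80 and 7.71 log2 units in late S and 2.48, 3.59 and 0.07 in CDT. CDT replicate 3 was near the lowest values of the array, and the groups were far apart. The difference was 4.93 ± 0.73 log2 units (SE; limma adjusted p = 0.0102), and 2.77 with a pseudocount of 16.

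IER3, an early response protein that affects cell survival, had 6.22, 6.44 and 6.49 log2 units in late S and 3.17, 3.34 and 2.32 in CDT. The late S arrays lay within a narrow band above all CDT arrays. The difference was 3.44 ± 0.57 log2 units (SE; limma adjusted p = 0.0254). RGS2, which speeds GTP hydrolysis by G protein alpha subunits, had 5.18, 6.59 and 5.74 in late S and 1.25, 2.18 and 2.67 in CDT. Its groups did not overlap either, with a difference of 3.80 ± 0.71 log2 units (SE; limma adjusted p = 0.0372).

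IER3 was the only gene to pass in its list of immediate early and short-lived transcripts. Of 44 listed, 43 were measured, 1 rose and 0 fell, and the median difference was -0.31 log2 units. In that list, 1 member (2.33%) was higher without overlap and 7 (16.3%) were lower, beside 4.01% higher and 5.18% lower of all genes. Among the lower ones IER2, an early response factor, had 3.02, 4.61 and 4.02 log2 units in late S and 5.65, 5.37 and 4.63 in CDT (difference -1.34, limma adjusted p = 0.761). MYC, the growth-promoting transcription factor, had 5.27, 6.28 and 6.20 in late S and 6.59, 6.75 and 6.66 in CDT (difference -0.75, limma adjusted p = 0.872).

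Of 53 listed androgen-induced genes, 43 were measured, 1 rose and 0 fell. The gene that rose was KLK2, a secreted serine protease of prostate epithelium. The list's median difference was 0.75 log2 units, 0.41 with a pseudocount of 16 and 1.20 without late S replicate 1, and 8 members (18.6%) were higher without overlap and 1 (2.33%) lower, beside 4.01% higher and 5.18% lower of all genes.

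KLK2 had 8.38, 8.78 and 8.69 log2 units in late S, 8.12, 7.76 and 7.81 in CDT + DHT and 5.85, 5.66 and 5.75 in CDT. All arrays with DHT lay above those in CDT, and every group was tight. Late S exceeded CDT by 2.87 ± 0.42 log2 units (SE), or 7.29-fold, with an adjusted p of 0.0102 by limma. The difference between late S and CDT + DHT was 0.72 ± 0.42 (SE; limma adjusted p = 0.565), and between CDT + DHT and CDT it was 2.15.

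KLK3, the gene of prostate-specific antigen, had 9.17, 9.76 and 9.63 log2 units in late S, 8.96, 8.73 and 8.59 in CDT + DHT and 6.52, 8.15 and 8.05 in CDT. Late S and CDT did not overlap, and CDT replicate 1 was lowest. The difference between late S and CDT, 1.94 ± 0.50 log2 units (SE), did not pass (limma adjusted p = 0.29) but did with a pseudocount of 16 (1.85, adjusted p = 0.0309). Whether probes of these related genes cross-hybridise was not tested.

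The promoters of both kallikreins are shown because KLK2 rose, KLK3 differed with the same sign, and their windows hold an androgen response element-like string at nearly the same place. The search used the 15-base androgen response element, which reads the same on both strands. Capitals mark the match, which has 3 mismatches in KLK2, 176 to 162 bases before the start, and 2 in KLK3, 170 to 156 bases before it. The windows are the 250 bases before the RefSeq start on GRCh38.p14, plus strand, chr19:50873189-50873438 for KLK2 and chr19:50854665-50854914 for KLK3.
KLK2: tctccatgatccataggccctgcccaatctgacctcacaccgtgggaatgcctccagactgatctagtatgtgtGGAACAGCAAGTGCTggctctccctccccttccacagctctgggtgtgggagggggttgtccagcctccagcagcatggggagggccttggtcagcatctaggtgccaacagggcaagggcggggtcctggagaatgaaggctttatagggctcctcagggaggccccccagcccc
KLK3: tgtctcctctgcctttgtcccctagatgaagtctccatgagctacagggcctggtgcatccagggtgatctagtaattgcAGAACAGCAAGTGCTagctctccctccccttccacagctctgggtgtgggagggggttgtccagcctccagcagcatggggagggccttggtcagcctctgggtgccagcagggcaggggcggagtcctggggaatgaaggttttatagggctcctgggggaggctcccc
Aligned on the matched site, the sequences are identical at 185 of 244 bases (75.8%). Up to 3 mismatches occur in 10.8% of all windows and up to 2 in 1.41%. Both windows also hold TATAAA on the minus strand, as do 11.5% of windows on either strand, and GGGCGG, as do 45.0%, and KLK2 holds CCAAT, as do 34.6%. Strings were searched on both strands, and a match is a description of letters that says nothing of binding.

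Other androgen-induced genes did not pass. SGK1, a serum- and hormone-responsive kinase, had 3.69, 4.86 and 3.16 log2 units in late S and 1.30, 2.47 and 0.02 in CDT (difference 2.64, limma adjusted p = 0.327). NDRG1, an androgen- and stress-responsive protein, had 4.49, 6.85 and 7.05 in late S and 2.98, 4.51 and 3.78 in CDT (difference 2.37, limma adjusted p = 0.413). SGK1 did not overlap between groups, while NDRG1 overlapped through late S replicate 1.

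Of 28 listed androgen-repressed genes, 22 were measured and 0 passed in either direction, with a median of -0.32 log2 units. Without overlap 2 (9.09%) were higher and 3 (13.6%) lower, beside 4.01% higher and 5.18% lower of all genes. CAMK2N1, an inhibitor of the kinase CaMKII, was the closest to passing of all lower genes. It had 7.95, 8.05 and 7.90 log2 units in late S, 9.68, 9.92 and 9.72 in CDT + DHT and 10.07, 10.11 and 10.01 in CDT. Its late S arrays were well below all the others. The difference from CDT was -2.10 ± 0.42 log2 units (SE; limma adjusted p = 0.0593), and it passed with a pseudocount of 16 (-2.03, adjusted p = 9.09e-05). CXCR4, a chemokine receptor, had 3.45, 4.35 and 4.41 in late S and 0.50, 2.20 and 0.03 in CDT (difference 3.16, limma adjusted p = 0.0996). LRRN1, a leucine-rich repeat membrane protein, had a difference of -2.83 (limma adjusted p = 0.35) with overlapping arrays.

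The other lower genes of smallest p also missed the threshold. GATA2, a transcription factor of luminal cells, had 4.16, 5.17 and 4.90 log2 units in late S and 7.37, 6.97 and 6.50 in CDT (difference -2.20, limma adjusted p = 0.165). ID3, an inhibitor of helix-loop-helix factors, had 2.86, 3.82 and 4.58 in late S and 5.73, 5.72 and 5.67 in CDT (difference -1.96, limma adjusted p = 0.165). HOXC9, a homeobox factor, had 4.77, 5.52 and 4.85 in late S and 7.03, 7.16 and 7.11 in CDT (difference -2.05, limma adjusted p = 0.165). In all 3 genes every late S array was below every CDT array. With a pseudocount of 16 each passed, at adjusted p of 0.0052, 0.0052 and 0.00505 by limma. GPER1, a membrane estrogen receptor, with a difference of -3.42 (limma adjusted p = 0.0925) and CSMD1, with -2.64 (adjusted p = 0.12), also passed in that setting, at 0.0301 and 0.0319. DAB1, an adaptor of reelin signalling, did not pass in either (difference -2.69, limma adjusted p = 0.13). In all, that setting called 36 genes, 20 higher and 16 lower.

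No member passed in the list around ribonucleotide reductase, the enzyme that hydroxyurea inhibits. Of 25 listed genes of ribonucleotide reductase and nucleotide supply, 23 were measured, 2 (8.7%) were higher and 0 lower without overlap, beside 4.01% higher and 5.18% lower of all genes, and the median was -0.24 log2 units. The median turned to 0.25 without late S replicate 1. RRM2, the small reductase subunit of dividing cells, had 6.40, 7.05 and 6.44 log2 units in late S and 5.47, 6.07 and 5.68 in CDT. Its groups did not overlap, and the difference was 0.89 ± 0.49 (SE; limma adjusted p = 0.84). RRM1, the large subunit, had 5.39, 7.61 and 7.21 in late S and 3.55, 6.90 and 6.92 in CDT. Its difference of 0.95 ± 0.81 (SE; limma adjusted p = 0.925) rested on CDT replicate 1 and was -0.17 without it. RRM2B, the p53-induced small subunit, was spread from 0.11 to 5.52 within late S (difference 1.17 ± 1.23 SE, limma adjusted p = 0.94). Its difference was -0.11 without late S replicate 2.

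All 48 listed genes of replication forks and origin licensing were measured, with 0 called and a median of 0.39 log2 units. Without overlap 6 (12.5%) were higher and 1 (2.08%) lower, beside 4.01% higher and 5.18% lower of all genes. PCNA, the sliding clamp of DNA polymerases, had 7.09, 7.87 and 7.98 in late S and 5.94, 6.75 and 7.04 in CDT (difference 1.07, limma adjusted p = 0.825). RPA3, a subunit of the single-strand binding complex, had 6.52, 6.74 and 6.89 in late S and 5.90, 5.74 and 4.88 in CDT (difference 1.21, limma adjusted p = 0.774). Both were higher without overlap. CDC6, which loads the replicative helicase, differed by 1.61, and POLA1, the catalytic subunit of the priming polymerase, by 1.39 log2 units (limma adjusted p = 0.774 and 0.812).

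Of the ATR, ATM and replication checkpoint list, 23 of 24 were measured and 0 were called, with a median of 0.50 log2 units. Without overlap 2 (8.7%) were higher and 0 lower, beside 4.01% higher and 5.18% lower of all genes. That median was -0.06 without CDT replicate 1. Of the homologous recombination and Fanconi list, 28 of 34 were measured and 0 called, with 2 (7.14%) higher without overlap beside 4.01% of all genes, and a median of 0.20, or -0.10 without CDT replicate 1.

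Of 63 listed replication-dependent histone genes, which are transcribed and stable mainly during S phase, 52 were measured and 0 were called. Their median was -0.35 log2 units, with 2 (3.85%) higher and 4 (7.69%) lower without overlap, beside 4.01% higher and 5.18% lower of all genes. H2BC14 had 0.73, 2.17 and 1.60 in late S and 3.25, 4.55 and 3.76 in CDT (difference -2.35, limma adjusted p = 0.567). H3C8 had 4.37, 1.68 and 3.55 in late S, while every CDT array was at 0.02 or below (difference 3.19, limma adjusted p = 0.0593). That difference depends on the pseudocount and was 0.69 with a pseudocount of 16. H3C8 also correlated at 0.933 over the 20 arrays with the mean of the 9 called genes that are at the floor in CDT, described further on. Histone genes are near-identical copies, so that probes may not separate them. The kit's handling of transcripts without a poly(A) tail is not given in the sources used here.

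Of 80 listed mitotic genes, 79 were measured and 0 called, with a median of 0.34 log2 units. Without overlap 9 (11.4%) were higher and 2 (2.53%) lower, beside 4.01% higher and 5.18% lower of all genes. CDK1, the mitotic kinase, had 5.17, 6.78 and 5.68 in late S and 3.46, 4.08 and 3.70 in CDT (difference 2.12 ± 0.79 SE, limma adjusted p = 0.706). Its groups did not overlap. CENPE, a kinetochore motor, differed by 2.24, and SPC24, a subunit of the NDC80 kinetochore complex, by 1.82 log2 units (limma adjusted p = 0.594 and 0.642). CCNB1, the cyclin partner of CDK1, had 6.22, 7.23 and 6.58 in late S and 6.46, 7.71 and 7.09 in CDT, a difference of -0.41 ± 0.48 (SE). MKI67, the proliferation marker, and CCNA2, the S-phase cyclin, differed by -0.04 ± 0.76 and -0.0017 ± 1.22 (SE), and their sign changed with the setting.

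Of 30 listed cyclins, CDK inhibitors, E2F and RB genes, 29 were measured. CDKN1A rose and 0 fell. Without overlap 4 (13.8%) were higher and 1 (3.45%) lower, beside 4.01% higher and 5.18% lower of all genes, and the median was -0.13 log2 units, or 0.32 without late S replicate 1. CDKN1B, the p27 inhibitor, had 6.13, 5.89 and 5.95 in late S and 4.37, 5.22 and 4.62 in CDT (difference 1.25, limma adjusted p = 0.707). CCNE2, a cyclin of S-phase entry, differed by 1.35 and CCND1, the G1 cyclin that androgen can repress, by -1.55 log2 units (limma adjusted p = 0.839 and 0.825). CDKN1B did not overlap between groups, CCNE2 was barely apart, and CCND1 overlapped. The other cycle genes of the fixed set, CCNE1, E2F1, E2F7, E2F8, MCM5, SLBP, CHEK1 and WEE1, had differences from -0.87 for CCNE1 to 0.93 for E2F8, and 0 of them passed.

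Of 16 listed BCL2 family genes, 15 were measured and 0 called, with 2 (13.3%) higher without overlap, BBC3 among them, beside 4.01% of all genes, and a median of -0.21 log2 units.

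Of 32 listed NF-kB and inflammatory genes, 30 were measured, and IER3 was again the gene that rose. The arrays did not overlap for 6 higher (20.0%) and 3 lower members (10.0%), beside 4.01% higher and 5.18% lower of all genes, and the median was 0.07 log2 units. SAA1, an acute-phase apolipoprotein, had 5.65, 5.57 and 5.67 in late S and 3.23, 2.74 and 2.41 in CDT. Its late S arrays were nearly equal, and the difference of 2.83 ± 0.65 (SE) did not pass (limma adjusted p = 0.162) but did with a pseudocount of 16 (1.55, adjusted p = 0.000183). Its close relative SAA2 had a difference of 2.47 (limma adjusted p = 0.228), and probes of both may read either gene.

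Of 36 listed NRF2 and oxidative stress genes, 35 were measured and 0 called, with a median of 0.24 log2 units. Without overlap 4 (11.4%) were higher and 1 (2.86%) lower, beside 4.01% higher and 5.18% lower of all genes. HMOX1, which degrades heme, had 7.95, 7.50 and 7.87 in late S and 7.08, 5.54 and 5.44 in CDT. The groups did not overlap, and the difference of 1.75 ± 0.50 (SE; limma adjusted p = 0.402) passed with a pseudocount of 16 (1.52, adjusted p = 0.0382). TKT, transketolase of the pentose phosphate pathway, differed by 1.29 without overlap (limma adjusted p = 0.706). SLC7A11, the cystine importer, differed by 2.27 log2 units with overlap through late S replicate 1 (limma adjusted p = 0.554).

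Of 27 listed sterol synthesis genes, 21 were measured and 0 called, with a median of 0.60 log2 units, the third highest of the 29 lists. Without overlap 2 (9.52%) were higher and 1 (4.76%) lower, beside 4.01% higher and 5.18% lower of all genes. The median was 0.16 without CDT replicate 1. INSIG1, which retains the sterol sensor in the endoplasmic reticulum, had 5.29, 6.65 and 5.80 in late S and 2.90, 4.78 and 4.14 in CDT (difference 1.97, limma adjusted p = 0.415). EBP, a sterol isomerase, had 8.99, 8.66 and 9.04 in late S, 8.78 ± 0.14 in CDT + DHT (SD, n = 3) and 7.85, 8.06 and 7.77 in CDT. Of 21 listed fatty acid synthesis genes, 20 were measured and 0 called, with a median of 0.32. Without overlap 3 (15.0%) were higher and 1 (5.0%) lower, beside 4.01% higher and 5.18% lower of all genes. FASN, the fatty acid synthase, had 5.13, 3.92 and 4.05 in late S and 2.54, 3.05 and 2.32 in CDT (difference 1.73, limma adjusted p = 0.555). FADS1, a fatty acid desaturase, differed by 1.58 without overlap (limma adjusted p = 0.706).

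The remaining lists had 0 genes called. The median was 0.10 log2 units for 40 of 40 genes of unfolded protein and amino acid stress, 0.21 for 14 of 16 of iron handling, 0.08 for 28 of 32 of glycolysis and hypoxia response and -0.30 for 15 of 20 of globins and heme synthesis. It was -0.07 for 38 of 41 interferon-stimulated genes, -0.16 for 15 of 17 alpha- and beta-tubulins and -0.17 for 13 of 13 polyamine synthesis genes. Among the tubulins TUBA1A had 8.06, 8.29 and 7.97 in late S and 9.43, 9.44 and 9.34 in CDT. Its groups were tight and apart, and the difference of -1.30 ± 0.42 (SE; limma adjusted p = 0.554) passed with a pseudocount of 16 (-1.26, adjusted p = 0.0235).

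**Figure D3:**
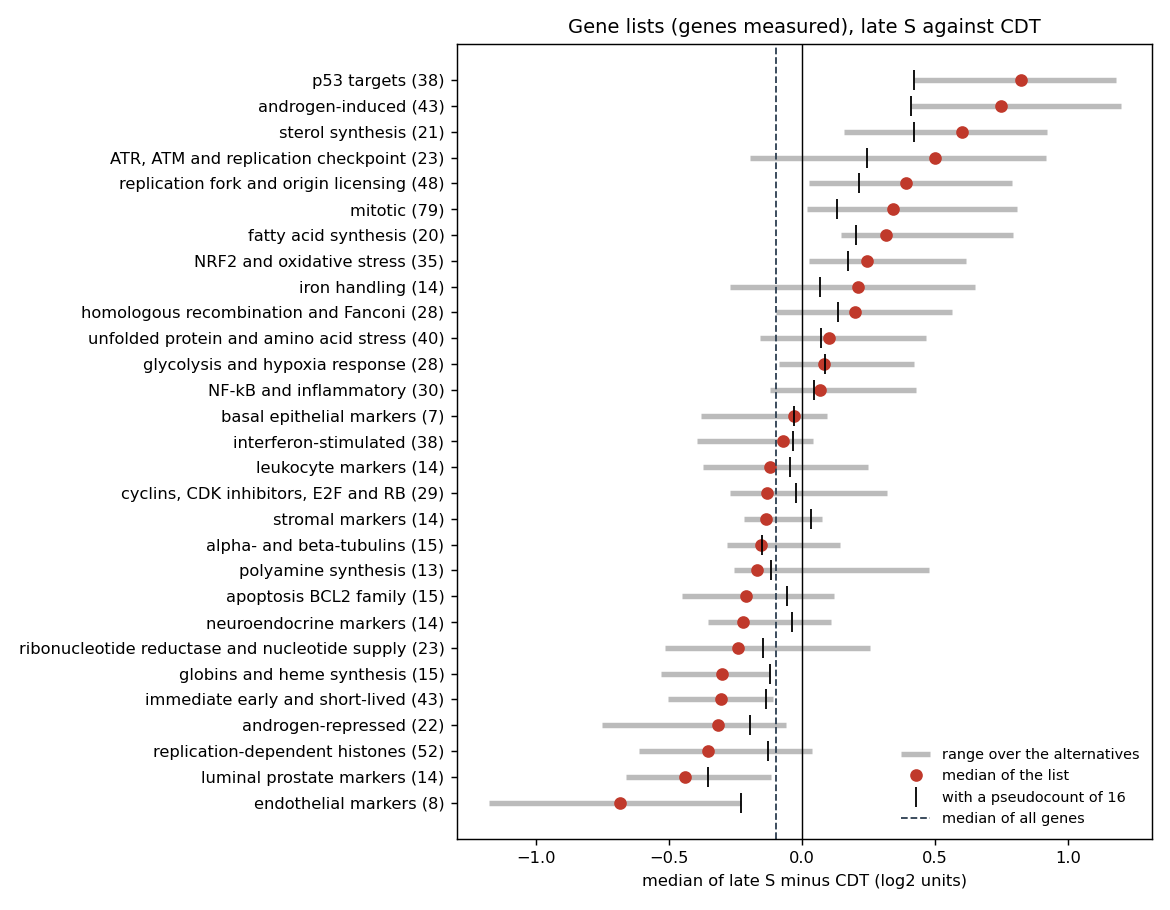
Median difference between late S and CDT in log2 units for each of the 29 gene lists, with the number of genes measured, the value with a pseudocount of 16 and the range over 12 alternatives. The p53 targets (0.82) and androgen-induced genes (0.75) are furthest right, and the dashed line marks the median of all genes at -0.10.

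Cell type markers had 0 genes called in every list. The luminal prostate list had a median of -0.44 log2 units, with 1 member (7.14%) higher and 4 (28.6%) lower without overlap, beside 4.01% higher and 5.18% lower of all genes, and its mean per array lay between 4.83 and 6.09 in late S and between 5.57 and 6.43 in CDT. HOXB13, a homeobox factor of prostate epithelium, had 4.76, 5.81 and 5.45 in late S and 7.10, 7.13 and 5.93 in CDT (difference -1.38, limma adjusted p = 0.706). For the 7 of 12 basal epithelial markers measured the median was -0.03, and the list's mean was 2.82 to 3.93 in late S and 3.55 to 4.21 in CDT. For 14 of 16 neuroendocrine markers it was -0.22, with means of 2.50 to 3.24 in late S and 2.82 to 3.15 in CDT. For 14 of 14 stromal, 14 of 15 leukocyte and 8 of 8 endothelial markers the medians were -0.14, -0.12 and -0.69. The stromal means were 2.41 to 2.86 in late S and 2.50 to 3.03 in CDT, the leukocyte means 2.51 to 3.34 in late S and 2.34 to 3.20 in CDT, and the endothelial means 2.09 to 3.25 in late S and 2.94 to 3.36 in CDT. POSTN, a stromal matrix protein, averaged 0.27 in late S and 0.42 in CDT, near the lowest values. The part of these markers in the results above was not tested.

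The second group of 9 called genes held C8A, a complement component, OR51M1, an olfactory receptor, DDX51, an RNA helicase, SLC67A1-AS, GDPD5, a phosphodiesterase of glycerol lipids, MZF1, a zinc finger factor, PDE1B, a cyclic nucleotide phosphodiesterase, CCDC71, and H6PD, a dehydrogenase of the endoplasmic reticulum. C8A had 7.50, 4.45 and 6.66 log2 units in late S, with CDT arrays at 0.93 or below (difference 5.89 ± 1.04 SE, limma adjusted p = 0.0336). All 9 had their highest late S value in replicate 1 and their lowest in replicate 2, an order that 13.2% of all genes and 0 of the other 9 showed. Among the late S arrays, replicate 1 also had the most features below an intensity of 1 and replicate 2 the fewest. The part of this in the result was not tested.

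Within late S these 9 spanned 2.60 to 3.57 log2 units each, against 0.12 to 1.80 for the other 9 called genes. Their mean was 6.24, 3.24 and 5.21 in late S replicates 1, 2 and 3, 3.92 and 3.15 in early S, 0.75, 0.22 and 0.50 in CDT + DHT and 0.03, 0.17 and 0.19 in CDT. In the 14 arrays outside this comparison the median correlation between pairs of them was 0.947, beside 0.394 for pairs of the other 9, as a description over arrays that share groups. Over all 20 arrays, 40 genes, these 9 included, correlated with their mean at 0.9 or above. The differences depend on the pseudocount, since C8A differed by 2.53 log2 units with a pseudocount of 16, and none of the 9 passed there. Quantile normalization kept C8A alone among them, and 0 passed without late S replicate 1.

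**Figure D4:**
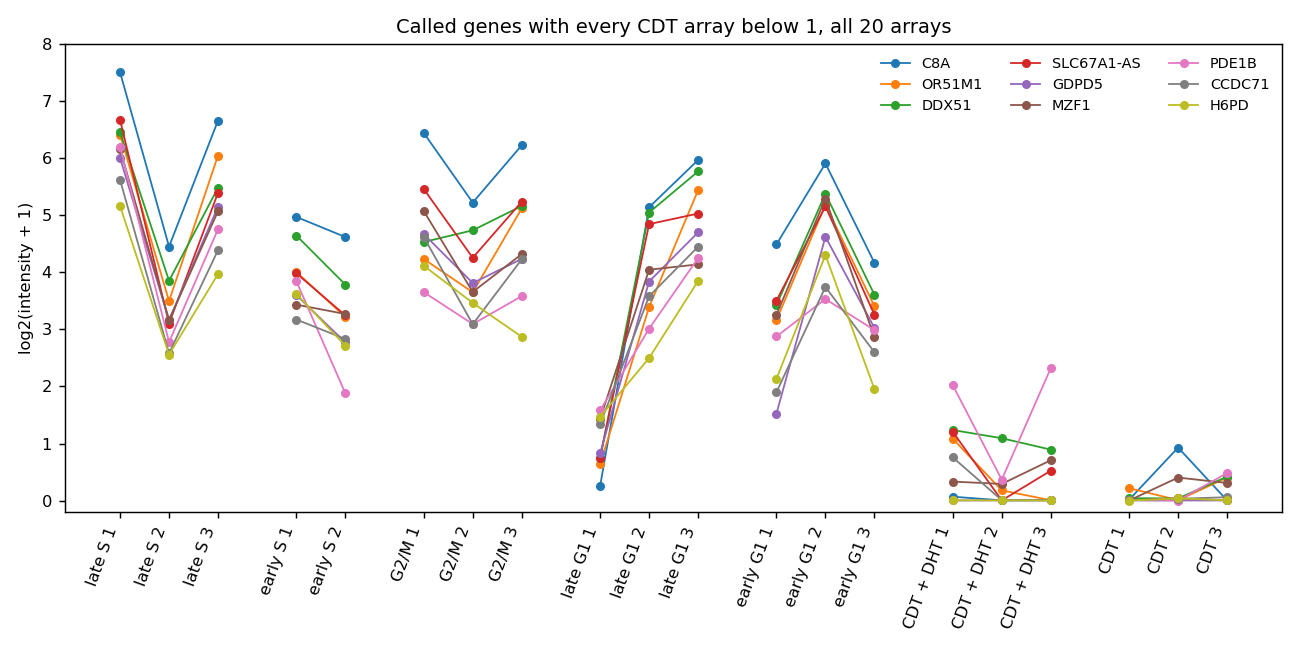
Log2(intensity + 1) of the 9 called genes whose CDT arrays were all below 1, in all 20 arrays, with arrays of a group joined by lines. The lines run nearly in parallel in late S and less so in G2/M and CDT + DHT, and late S replicate 1 is the highest late S array for each gene.

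Late S was next set against CDT + DHT, cells that had DHT but neither the drug nor the hormone-proficient medium. Here 13 genes (0.0706%) passed by limma at an adjusted p below 0.05, 10 of them (0.0543%) higher and 3 (0.0163%) lower. At an unadjusted p below 0.05, 1878 genes (10.2%) passed, 875 (4.75%) of them higher. Of the 18 genes called against CDT, 8 passed and all 18 were higher without overlap, where 6.29% of all genes were higher and 8.81% lower without overlap, but the comparisons share the late S arrays. SFN had 4.25, 5.06 and 4.15 log2 units in CDT + DHT, and late S was 3.82 ± 0.59 above it (SE; limma adjusted p = 0.0293). GDF15 had 7.65, 7.90 and 7.67 in CDT + DHT, and late S was 2.73 ± 0.44 above it (SE; limma adjusted p = 0.0293). In both genes every late S array exceeded every CDT + DHT array.

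IER3 had 3.43, 3.01 and 1.45 log2 units in CDT + DHT and was 3.75 higher in late S (limma adjusted p = 0.0293). RGS2 and SAA1 were 3.81 and 3.66 higher in late S (limma adjusted p = 0.0467 each). The other genes called higher were ANKRD20A8P, a pseudogene, by 2.68, and the dim genes C8A, GDPD5, MZF1 and H6PD. The 3 lower genes were NUP93, a nuclear pore protein, DAB1 and NIPSNAP3B. NUP93 had 5.37, 6.78 and 5.32 in late S and 9.08, 8.70 and 8.15 in CDT + DHT (difference -2.82, limma adjusted p = 0.0467). CDKN1A, TP53I3 and S100P were 2.42, 2.51 and 2.95 higher in late S than in CDT + DHT without passing (limma adjusted p = 0.148, 0.141 and 0.151). Leaving out any 1 array other than late S replicate 2 left 0 genes called, and leaving out that array gave 62.

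Values of CDT + DHT against CDT stand beside these, from the same CDT arrays. By limma, 0 genes passed, while 1263 genes (6.86%) had an unadjusted p below 0.05. The difference was 1.74 log2 units for SFN, 1.98 for S100P, 1.46 for CDKN1A, 1.24 for TP53I3 and 0.46 for DDB2. It was -0.20 for GDF15, -0.31 for IER3 and -0.01 for RGS2.

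Against early S, the arrest by aphidicolin, 1 gene (0.00543%) passed by limma, while 1077 (5.85%) had an unadjusted p below 0.05. It was OR1G1, an olfactory receptor, with 5.18, 3.61 and 4.82 log2 units in late S and 0.0039 and 0.020 in early S (difference 4.53, limma adjusted p = 0.00629). The early S arrays were at the floor, so the size depends on the pseudocount and was 1.29 with a pseudocount of 16. OR1G1 averaged 4.54 log2 units in late S, beside 5.12 in CDT and 4.25 in CDT + DHT. The call was lost without late S replicate 3 (adjusted p = 0.0634), early S replicate 1 (0.284) or early S replicate 2 (0.272), and with only the compared groups (0.946). None of the 18 genes passed, 17 of them being above 0 by up to 1.99 log2 units, and S100P below 0 at -0.11. SFN had 7.83 and 7.13 in early S, 0.82 ± 0.66 below late S (SE; limma adjusted p = 0.788). CDKN1A had 8.43 and 8.54 in early S, 0.36 ± 0.66 below late S (SE; limma adjusted p = 0.901).

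GDF15, HMOX1 and GSN, an actin-severing protein, were also higher in every late S array than in both early S arrays, as were 8.69% of all genes, while 10.2% were lower without overlap. GDF15 had 8.40 and 8.55 in early S, 1.99 below late S (limma adjusted p = 0.775). HMOX1 had 5.09 and 5.12 in early S, 2.67 below late S (limma adjusted p = 0.372). GSN had 8.40, 7.65 and 7.98 in late S and 5.24 and 4.60 in early S, a difference of 3.09 (limma adjusted p = 0.212). None of the 3 passed here, and all 3 passed with a pseudocount of 16, at adjusted p of 0.0171, 0.0139 and 0.00566, whereas OR1G1 then did not (0.356). With 2 early S arrays the precision was lower than in the other comparisons.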

How the data were processed

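RNA of LNCaP cells was extracted with Trizol, amplified with a NuGEN Ovation kit and hybridised with biotin label, per the labels' protocols. The deposited values were 1 intensity per feature and array. For making them the submitters' processing notes name Affymetrix Expression Console 1.1. How probes were summarised, whether arrays were normalized to each other and the genome build are not stated in the sources used here. No value was at or below 0. Per array, 9.35% to 23.0% of the features were below 1, while some values lay far above the array medians. The intensities were therefore taken as linear, and log2(value + 1) was analysed. The number of arrays limits the precision.

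Of 33297 features, 19460 had 1 gene symbol in the platform annotation, 1754 had several and 12083 were not listed. Names were updated through RefSeq for GRCh38.p14 by Entrez ID (19429 matched), and the brightest feature per gene was kept, giving 18417 genes. The test was limma 3.58.1 under R 4.3.3 (its lmFit and eBayes steps with default settings, 20 arrays in 1 fit, 7 groups, two-sided, Benjamini-Hochberg adjustment over all genes, threshold 0.05). The fit was tested on simulated data. Each value was drawn independently there, so that deviations shared by many genes of an array were not covered. An exact permutation test of 3 arrays against 3 cannot go below 0.1 and was not used.

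Genes were named by rule: the largest differences that passed without overlap, or the smallest p where few passed, up to 5 passing and 3 other members per list, a fixed set of cycle, kallikrein and p53 genes, and the smallest p in the other comparisons. Not every gene that the rule allows is printed. The arrays, the 29 gene lists and the rule were chosen with earlier results of these data known, so counts within a list are a description. Alternatives were quantile normalization, centring, a pseudocount of 16, brighter genes only, the mean of a gene's features, all features, trend and robust variance, array weights, a replicate block, only the compared groups and leaving out each array. Leaving out replicate 1 of both late S and CDT was added after the data were seen.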

Additional observations from a re-analysis of the deposited data

Results flagged for a closer look

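OR1G1 was singled out because late S and early S, both S-phase arrests with DHT, differed from each other in this gene, with a difference of 4.53 log2 units (limma adjusted p = 0.00629). Its late S arrays were at 5.18, 3.61 and 4.82 log2 units, and its early S arrays at 0.0039 and 0.020. The early S arrays were at the floor, so the size depends on the pseudocount: with 16 in place of 1 it was 1.29 (limma adjusted p = 0.356). The call was also lost without late S replicate 3 or either early S array and with only the compared groups, with adjusted p from 0.0634 to 0.946. Late S did not pass against CDT (difference -0.58, limma adjusted p = 0.936). OR1G1 averaged 5.12 log2 units in CDT, 4.25 in CDT + DHT, 3.97 in early G1 and 3.33 in late G1. In G2/M cells, which had both aphidicolin and nocodazole, it averaged 0.03, at the floor as in early S. The part of the drugs was not tested.

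An unannotated feature, 8021635, showed signal in late S that CDT lacked, in data outside the gene tests. It had 4.368, 3.858 and 5.915 log2 units in late S replicates 1, 2 and 3, and 0.059 or less in each CDT array, a difference of 4.69 (limma adjusted p = 0.0359 with every feature tested). The CDT values were at the floor, so the size of this difference depends on the pseudocount of 1 and was not computed with another. It was the only one of 12083 unlisted features to pass.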

How the results depend on the processing

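The number of genes called depended on the setting, beside 18 for late S against CDT, 13 against CDT + DHT, 1 against early S and 0 for CDT + DHT against CDT. For late S against CDT it was 10 with quantile normalization, 36 with a pseudocount of 16 and 205 with array weights. It was 6 without replicate 1 of both groups (chosen after seeing the data) and 0 with only the compared groups (670 at an unadjusted p below 0.05). With every feature tested 9 features passed, 6 of them those of SFN, CDKN1A, S100P, KLK2, TP53I3 and IER3. Of the others, 1 was the unlisted 8021635, and 2 differed by 3.44 log2 units each, as IER3 did. Late S against CDT + DHT gave 27 with centred arrays, 62 with a pseudocount of 16, 26 with brighter genes, 53 with trend and robust variance, 1776 with array weights and 0 with only the compared groups (1322 unadjusted). Late S against early S gave 4 with a pseudocount of 16, 2 with brighter genes, 3 with trend and robust variance, 2 with array weights and 0 with only the compared groups (507 unadjusted). Of 18417 genes, 670 and 507 are smaller shares than the unadjusted threshold of 0.05 itself, and 1322 is a larger one. CDT + DHT against CDT gave 4 with a pseudocount of 16, 2 with trend and robust variance and 12 with array weights. Leaving out 1 array gave 1 to 35, 0 to 62, 0 to 2 and 0 to 2 genes in these comparisons. Fewer arrays or groups leave a less certain spread; otherwise the cause was not tested.

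With the replicate block, late S against CDT had 5 genes and late S against CDT + DHT 0. Deviations of same-numbered late S and CDT arrays correlated at 0.297, 0.481 and -0.107 for replicates 1, 2 and 3. Between arrays of unlike number the correlations ran from -0.422 to 0.0843. Deviations within a group cancel, so these values are not independent and cannot settle whether the numbers mark pairs. The labels do not say so, and the main fit did not take them as pairs.

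CCNA2 changed sign at 0.10 with quantile normalization, 0.0388 with centred arrays, 0.0475 with a pseudocount of 16 and 0.11 without replicate 1 of both groups, and ran from -1.34 to 1.44 on leaving out 1 array. MKI67 changed sign at 0.0493, 0.00096 and 0.0715 in the first 3 of these settings, 0.0851 with array weights and 0.32 without replicate 1 of both groups, and ran from -0.71 to 0.86. On leaving out 1 array RRM1 ran from -0.17 to 1.62 and RRM2B from -0.11 to 2.60. Of the alternatives for single genes, 1046 kept direction and side of the threshold, 258 lost the call, 45 gained one and 17 changed sign. The 1046 include genes that were not called in the main fit and stayed so. They therefore do not measure how stable the calls were. All 258 losses fell on genes called in the main fit. For late S against CDT, called genes passed in as few as 5 of 16 alternatives (GDPD5 among others) and at most 16 of 17 (SFN).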
